A study of Mus musculus with 48 samples.

Results

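Dbp, Tef, Hlf and Nfil3 were followed in the livers of mice of 3 Wfs1 genotypes after long-term valproic acid (VPA) or saline. These 4 genes were taken as the probesets of the array whose only gene symbol is Dbp, Tef, Hlf or Nfil3, which gave 1 probeset for each gene, among 19938 genes with a probeset of their own. The groups were KO mice (Wfs1 -/-), HZ mice (Wfs1 +/-) and WT mice (Wfs1 +/+), each given VPA at 300 mg/kg or vehicle (saline, 10 mL/kg) by daily intraperitoneal injection for 12 weeks, with 8 male mice and 8 arrays in each of the 6 groups. Injections began at 4 to 6 weeks of age and the mice were killed at 16 to 18 weeks, and all had a glucose tolerance test 24 h after the last injection and were killed 24 h after that test, thus 48 h after the last dose. Wfs1 encodes wolframin, which sits in the membrane of the endoplasmic reticulum, and VPA is an anticonvulsant and mood stabilizer that also inhibits histone deacetylases. The strain background is not given in the sources used here.

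Dbp, Tef and Hlf are the PAR bZIP transcription factors, named for a proline and acidic amino acid rich stretch beside a basic leucine zipper. They activate genes through a DNA element called the D-box, and Nfil3 (also known as E4BP4), a basic leucine zipper repressor, binds the same element and represses. In mouse liver these genes carry the output of the circadian clock: the CLOCK and BMAL1 proteins drive Dbp through E-boxes, the REV-ERB proteins repress Nfil3 through a RORE element, and Dbp and Nfil3 peak at nearly opposite times of day. Genes of heme synthesis, drug metabolism and fatty acid metabolism lie downstream. Lights were on from 07:00 for 12 h a day, but the hour of killing of each mouse is not given in the sources used here, so a difference in level and a difference in clock phase cannot be told apart in any comparison.

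The genes lie on separate chromosomes of GRCm38.p6: Dbp at chr7:45705100-45710203, Tef at chr15:81802673-81826863, Hlf at chr11:90336535-90390917 and Nfil3 at chr13:52967209-52982878. Their promoter windows in RefSeq on that build (250 bases before to 50 bases after a transcript start) are shown because the genes moved together or in opposition in the results that follow. Capitals mark matches to 6 short elements searched on both strands: the E-box CACGTG and its variant CACGTT, the D-box cores TTATGTAA and TTACGTAA, the RORE core TAGGTCA and the cyclic AMP response element TGACGTCA. Tef has 2 windows for 2 transcript starts, and the start used for Dbp and for Nfil3 lies inside the span of the gene rather than at its end. Each sequence runs 5′ to 3′ on the strand of its gene.
Dbp, chr7:45704997-45705296, plus strand: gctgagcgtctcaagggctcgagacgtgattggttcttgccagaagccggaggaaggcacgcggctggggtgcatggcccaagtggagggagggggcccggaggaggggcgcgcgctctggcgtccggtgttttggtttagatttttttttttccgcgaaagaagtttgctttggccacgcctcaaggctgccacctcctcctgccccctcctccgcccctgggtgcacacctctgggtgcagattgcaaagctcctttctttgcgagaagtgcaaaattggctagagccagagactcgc
Tef, chr15:81802423-81802722, plus strand: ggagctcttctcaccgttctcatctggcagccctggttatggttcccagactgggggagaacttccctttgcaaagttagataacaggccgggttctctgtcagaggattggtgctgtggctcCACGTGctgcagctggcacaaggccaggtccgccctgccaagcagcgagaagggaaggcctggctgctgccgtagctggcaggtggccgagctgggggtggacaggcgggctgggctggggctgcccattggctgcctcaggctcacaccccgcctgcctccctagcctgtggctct
Tef, chr15:81811164-81811463, plus strand: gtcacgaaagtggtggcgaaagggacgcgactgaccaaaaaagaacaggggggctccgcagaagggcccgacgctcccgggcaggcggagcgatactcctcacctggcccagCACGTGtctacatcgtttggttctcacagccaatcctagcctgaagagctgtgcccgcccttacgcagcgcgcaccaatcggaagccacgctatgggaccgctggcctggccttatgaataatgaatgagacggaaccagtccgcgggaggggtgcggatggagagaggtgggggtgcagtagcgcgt
Hlf, chr11:90390868-90391167, minus strand: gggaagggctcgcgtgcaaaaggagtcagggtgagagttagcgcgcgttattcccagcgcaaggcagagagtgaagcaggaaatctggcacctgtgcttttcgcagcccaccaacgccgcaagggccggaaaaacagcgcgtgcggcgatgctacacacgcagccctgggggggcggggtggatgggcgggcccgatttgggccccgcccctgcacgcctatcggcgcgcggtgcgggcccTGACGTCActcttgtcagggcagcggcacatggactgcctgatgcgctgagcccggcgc
Nfil3, chr13:52980990-52981289, minus strand: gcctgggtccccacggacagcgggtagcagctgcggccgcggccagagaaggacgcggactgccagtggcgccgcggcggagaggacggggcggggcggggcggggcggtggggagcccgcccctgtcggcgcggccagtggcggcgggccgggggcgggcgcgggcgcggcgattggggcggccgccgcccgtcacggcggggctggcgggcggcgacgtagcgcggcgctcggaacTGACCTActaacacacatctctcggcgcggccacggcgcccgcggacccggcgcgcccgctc

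Both Tef windows held the E-box CACGTG, at 127 to 122 bases and at 138 to 133 bases before the start, an element found in 7.15% of 32851 RefSeq promoter windows of the same length. The Nfil3 window held the RORE core on the opposite strand, read here as TGACCTA, 12 to 6 bases before the start, and 2.61% of the windows hold this core on either strand. In the Hlf window the cyclic AMP response element stood 9 to 2 bases before the start (1.79% of windows). The Dbp window held none of the 6 elements, and none of the 5 windows held CACGTT (4.68% of windows), TTATGTAA (0.938%) or TTACGTAA (0.119%). None of the matches overlapped another, and a match or its lack says only which letters stand in these 300 bases.

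Liver RNA had been hybridized to whole-transcript expression arrays (Affymetrix Mouse Gene ST), and the deposited values were on the log2 scale after RMA, on which a difference of 1 is a fold change of 2. The 48 arrays had medians of 6.90 to 7.03, and any pair correlated at 0.971 to 0.994 over all probesets. Comparisons were made with limma over 35556 probesets and are called here when the Benjamini-Hochberg adjusted p was under 0.05. Nothing in the labels says that mice of a group were litter mates or were handled apart. Each limma p-value weighs a difference of means against the spread between mice within groups, estimated once for all groups. The probeset of Wfs1 did not separate the genotypes (KO minus WT -0.15 ± 0.07 SE, limma adjusted p = 0.320), but it also reads exons that the study describes as intact in KO mice, so it does not check the labels. Hepatocyte markers (5 of 6 measured) averaged 13.9 to 14.1 in every mouse.

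The expression of Dbp, Tef and Hlf fell and that of Nfil3 rose with VPA when the 3 genotypes were averaged. The log2 difference of VPA minus saline was -1.92 ± 0.17 for Dbp, a 3.79-fold lower level, -0.88 ± 0.08 for Tef (1.84-fold lower), -0.47 ± 0.06 for Hlf (1.39-fold lower) and 0.77 ± 0.08 for Nfil3 (1.71-fold higher; SE, 24 VPA and 24 saline mice). All 4 genes were called (limma adjusted p = 5.9e-11 for Dbp and Tef, 2.1e-07 for Hlf and 8.8e-10 for Nfil3), where 8.61% of all probesets were. Against the saline mean of their own genotype, 22 of 24 VPA mice were lower for Dbp, 24 of 24 for Tef and 23 of 24 for Hlf, and 24 of 24 were higher for Nfil3. In whole liver, a lower level in each cell and fewer cells that express the gene cannot be told apart.

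**Figure D1:**
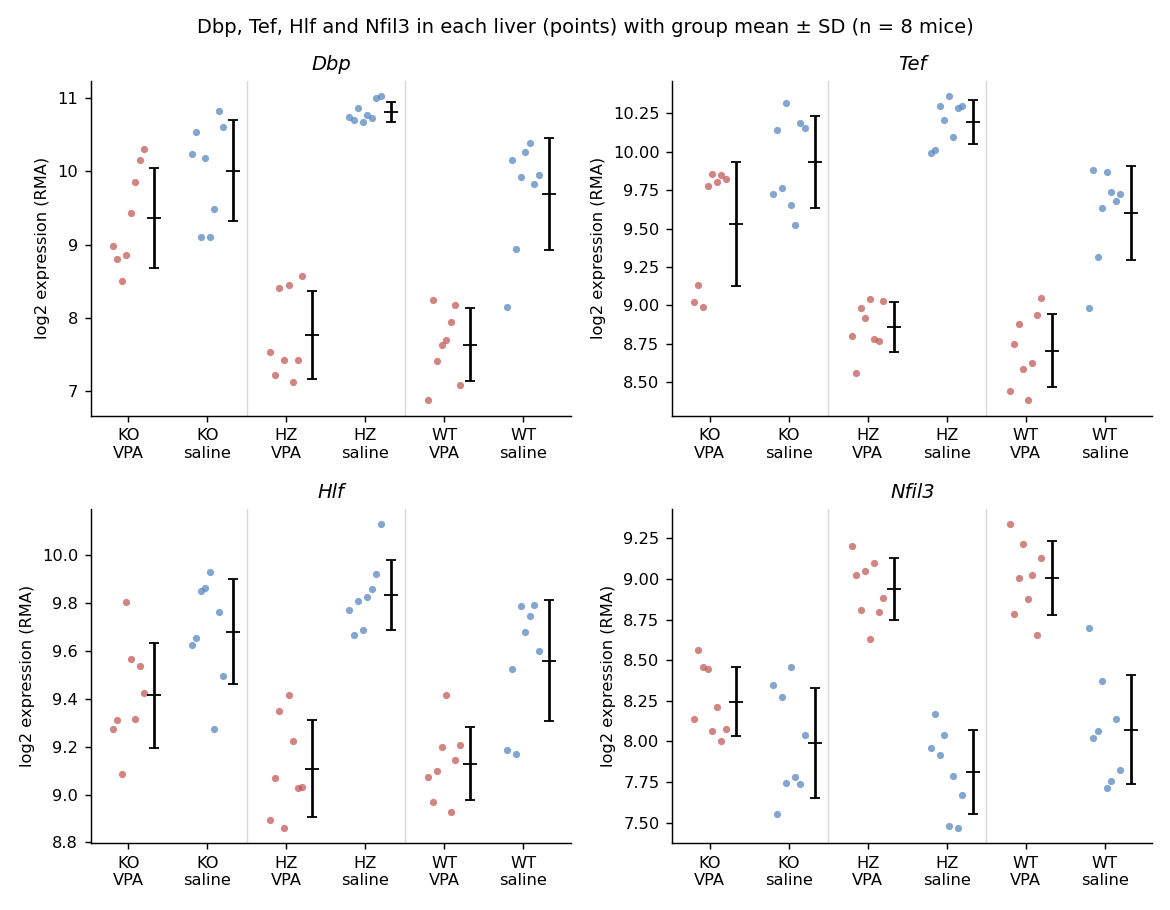
Log2 RMA expression of Dbp, Tef, Hlf and Nfil3 (vertical axes, separate scales) in each mouse (points) of the 6 groups, with the group mean and SD (n = 8) beside the points. VPA mice (red) stand clear of saline mice (blue) in HZ for all 4 genes, while in KO the treatments overlap.

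Within the genotypes the sizes were as follows, gene by gene. Dbp, the most strongly rhythmic of the activators in mouse liver, ranged from 7.11 (median 7.47) to 8.57 in HZ VPA mice, against 10.68 (median 10.76) to 11.03 in HZ saline mice. In WT mice it ranged from 6.87 (median 7.66) to 8.25 with VPA, against 8.15 (median 9.93) to 10.38 with saline. In KO mice it ranged from 8.51 (median 9.21) to 10.31 with VPA, against 9.10 (median 10.21) to 10.83 with saline. The HZ groups thus lay apart without overlap, the WT groups overlapped only through the lowest saline mouse, which lay among the VPA mice, and the KO groups overlapped widely. The difference of VPA minus saline was -3.05 ± 0.29 in HZ mice (SE, 8.29-fold lower, limma adjusted p = 2.7e-09), -2.07 ± 0.29 in WT mice (4.19-fold lower, adjusted p = 5.0e-05) and -0.65 ± 0.29 in KO mice, where it was not called (adjusted p = 0.647).

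Tef, a broadly expressed activator of the same family, followed the same order with a smaller range. It ran from 8.56 (median 8.86) to 9.04 in HZ VPA mice and from 9.99 (median 10.24) to 10.36 in HZ saline mice. In WT mice it ran from 8.38 (median 8.69) to 9.05 with VPA and from 8.98 (median 9.70) to 9.88 with saline. In KO mice it ran from 8.99 (median 9.79) to 9.86 with VPA and from 9.52 (median 9.95) to 10.32 with saline. Every HZ VPA mouse was below every HZ saline mouse, and so were 7 of 8 WT VPA mice relative to WT saline. Tef split the KO VPA group: 3 mice lay at or below 9.13 and the other 5 at or above 9.78, a gap that took 74.7% of the range of that group, and the 3 low mice were the only KO VPA mice below every KO saline mouse. The difference was -1.33 ± 0.13 in HZ mice (2.52-fold lower, limma adjusted p = 3.5e-09), -0.90 ± 0.13 in WT mice (1.86-fold lower, adjusted p = 0.00015) and -0.40 ± 0.13 in KO mice, not called (adjusted p = 0.408).

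Hlf, the third activator, had the smallest differences among the activators. It ran from 8.86 (median 9.05) to 9.42 in HZ VPA mice, against 9.67 (median 9.82) to 10.13 in HZ saline mice, from 8.93 to 9.42 in WT VPA mice against 9.17 to 9.79 in WT saline mice, and from 9.09 to 9.80 in KO VPA mice against 9.27 to 9.93 in KO saline mice. Only the HZ groups did not overlap. The difference was -0.72 ± 0.10 in HZ mice (1.65-fold lower, limma adjusted p = 3.7e-06), -0.43 ± 0.10 in WT mice (adjusted p = 0.0716) and -0.27 ± 0.10 in KO mice (adjusted p = 0.521), the last 2 of which were not called. The WT value was close to the threshold: without WT saline mouse 1 or without WT saline mouse 3 it was -0.48 or -0.49 and was called.

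Nfil3, the repressor of the set, moved the other way. It ran from 8.63 (median 8.96) to 9.20 in HZ VPA mice, against 7.47 (median 7.85) to 8.17 in HZ saline mice. In WT mice it ran from 8.65 (median 9.02) to 9.34 with VPA, against 7.71 (median 8.04) to 8.70 with saline. In KO mice it ran from 8.00 (median 8.18) to 8.56 with VPA, against 7.55 (median 7.91) to 8.46 with saline. The HZ groups were fully apart, the WT groups overlapped in the highest saline and the lowest VPA mouse, and the KO groups overlapped widely. The difference was 1.13 ± 0.13 in HZ mice (2.18-fold higher, limma adjusted p = 6.9e-08), 0.93 ± 0.13 in WT mice (1.91-fold higher, adjusted p = 5.0e-05) and 0.25 ± 0.13 in KO mice, not called (adjusted p = 0.701).

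Counted together, 4 of 4 genes were called with VPA in HZ mice, where 10.5% of all probesets were, 3 of 4 in WT mice, where 0.0703% were, and 0 of 4 in KO mice, where 0.0112% were. At an unadjusted p under 0.05 limma gave 3 of the 4 genes in KO mice (all but Nfil3) and 2547 of all probesets. The treated and saline groups did not overlap for 4 of 4 genes in HZ mice (1.7% of all probesets), for none in WT mice (0.045%) and for none in KO mice (0.0225%). Exact permutation tests over the 16 mice of a pair of groups (two-sided, adjusted over 9 comparisons per gene) called all 4 genes in HZ mice and all 4 in WT mice. In KO mice the same tests gave adjusted p = 0.105 for Dbp, 0.0517 for Tef, 0.0457 for Hlf and 0.151 for Nfil3, so that Hlf alone passed, at 1.20-fold lower with VPA.

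**Figure D2:**
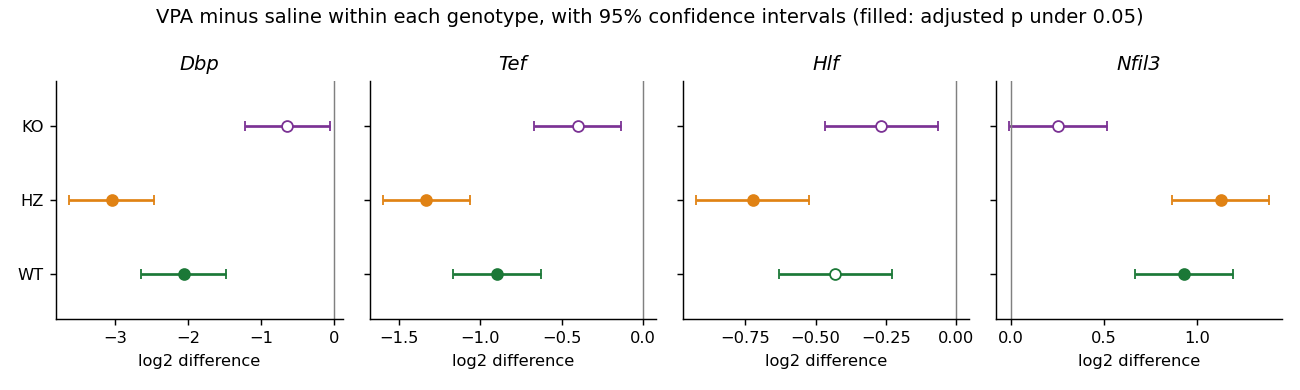
VPA minus saline on the log2 scale (horizontal axes, separate scales) for each gene in KO, HZ and WT mice, with 95% confidence intervals. Filled symbols are called by limma: 4 genes in HZ, Dbp, Tef and Nfil3 in WT and none in KO.

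Whether the effect of VPA itself differed between genotypes was tested as an interaction. The F test was called for Dbp (F = 17.56, limma adjusted p = 0.0120), where 0.0816% of all probesets were called, and not for Tef (F = 12.18, adjusted p = 0.0586), Nfil3 (F = 12.44, adjusted p = 0.0538) or Hlf (F = 5.38, adjusted p = 0.401). Tef and Nfil3 lay near the threshold. Over 48 refits that each left out a single mouse, the adjusted p of Tef ranged from 0.0172 to 0.120 and passed in 9, namely without WT saline mouse 1, HZ saline mouse 1, KO saline mouse 2, 4, 7 or 8 or KO VPA mouse 1, 2 or 3. That of Nfil3 ranged from 0.0196 to 0.113 and passed in 13, namely without WT saline mouse 1 or 4, HZ saline mouse 1 or 2, KO saline mouse 2, 4 or 7, WT VPA mouse 2 or 7, HZ VPA mouse 5 or KO VPA mouse 2, 3 or 4. Between pairs of genotypes, the VPA effect was smaller in size in KO than in HZ mice: the KO effect minus the HZ effect was 2.40 ± 0.41 for Dbp (SE, limma adjusted p = 0.00257), 0.93 ± 0.19 for Tef (adjusted p = 0.0165) and -0.87 ± 0.18 for Nfil3 (adjusted p = 0.0213). These 3 of 4 genes were called where 0.214% of all probesets were, and Hlf was not (0.46 ± 0.14, adjusted p = 0.163).

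The VPA effect in KO minus that in WT was 1.42 for Dbp, with a 95% confidence interval of 0.60 to 2.24. It was 0.50 (0.12 to 0.88) for Tef, 0.16 (-0.12 to 0.45) for Hlf and -0.68 (-1.05 to -0.31) for Nfil3. Limma called none of them and 0 of all probesets (0%) at the adjusted threshold, with 974 at an unadjusted p under 0.05. The effect in HZ minus that in WT was -0.99 (-1.81 to -0.16) for Dbp, -0.44 (-0.82 to -0.06) for Tef, -0.29 (-0.58 to -0.01) for Hlf and 0.20 (-0.17 to 0.57) for Nfil3, again with 0 of all probesets called (0%) and 2754 at an unadjusted p under 0.05.

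Compared with WT mice over both treatments, KO mice had higher Dbp and Tef and lower Nfil3. The difference of KO minus WT was 1.02 ± 0.20 for Dbp (SE, 2.03-fold higher, limma adjusted p = 0.0015), 0.58 ± 0.09 for Tef (1.49-fold higher, adjusted p = 0.000104) and -0.42 ± 0.09 for Nfil3 (1.34-fold lower, adjusted p = 0.00409). Hlf was not called (0.20 ± 0.07, adjusted p = 0.124). These 3 of 4 genes stand beside 2.94% of all probesets called in this comparison.

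Taken by treatment, the difference was called in VPA mice and not in saline mice, although the change of the difference between the treatments (the VPA effect in KO minus that in WT) was itself not called. With VPA, KO minus WT was 1.73 ± 0.29 for Dbp (3.32-fold higher, limma adjusted p = 0.000956), 0.83 ± 0.13 for Tef (1.77-fold higher, adjusted p = 0.000643), 0.28 ± 0.10 for Hlf (not called, adjusted p = 0.308) and -0.76 ± 0.13 for Nfil3 (1.69-fold lower, adjusted p = 0.00133), 3 of 4 genes where 0.405% of all probesets were called. Every KO VPA mouse had more Dbp and less Nfil3 than every WT VPA mouse, a lack of overlap seen in 0.143% of all probesets. The exact permutation test also passed Hlf there (adjusted p = 0.0232 over 9 comparisons). With saline, KO minus WT was 0.31 ± 0.29 for Dbp, 0.33 ± 0.13 for Tef, 0.12 ± 0.10 for Hlf and -0.08 ± 0.13 for Nfil3. None of the 4 was called there (lowest limma adjusted p = 0.354, for Tef), where 0.79% of all probesets were (281 called, 3290 at an unadjusted p under 0.05).

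KO mice were also set against HZ mice. With VPA, KO minus HZ was 1.60 ± 0.29 for Dbp (3.03-fold higher, limma adjusted p = 0.00413), 0.67 ± 0.13 for Tef (adjusted p = 0.0115), 0.31 ± 0.10 for Hlf (not called, adjusted p = 0.243) and -0.69 ± 0.13 for Nfil3 (adjusted p = 0.0062). Thus 3 of 4 genes were called where 0.298% of all probesets were, and Nfil3 separated the groups without overlap, as did 0.146% of all probesets. Hlf passed the exact permutation test with VPA (adjusted p = 0.0232 over 9 comparisons). When only the 16 arrays of these groups were fitted, Tef lost the call (adjusted p = 0.0766). With saline, KO minus HZ was -0.81 ± 0.29 for Dbp, -0.26 ± 0.13 for Tef, -0.15 ± 0.10 for Hlf and 0.18 ± 0.13 for Nfil3, none called by limma (lowest adjusted p = 0.182, for Dbp, with 1.39% of all probesets called). The exact permutation test did pass Dbp there (adjusted p = 0.00233 over 9 comparisons), with 7 of 8 KO saline mice below every HZ saline mouse.

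Heterozygous mice given saline formed a tight group at the high end for the activators. Dbp had an SD of 0.14 in HZ saline mice, against 0.69 in KO saline mice and 0.77 in WT saline mice. HZ minus WT with saline was 1.12 ± 0.29 for Dbp (limma adjusted p = 0.0766), 0.59 ± 0.13 for Tef (1.50-fold higher, adjusted p = 0.0332), 0.27 ± 0.10 for Hlf (adjusted p = 0.293) and -0.26 ± 0.13 for Nfil3 (adjusted p = 0.468), so that only Tef was called, where 0.304% of all probesets were. Every HZ saline mouse exceeded every WT saline mouse in Dbp and in Tef (2 of 4 genes, against 0.157% of all probesets), and the exact permutation test passed both (adjusted p = 0.000466 and 0.000699) and also Hlf (adjusted p = 0.0232). The call of Tef was lost in 8 of 16 refits that each left out a single mouse, namely WT saline mouse 1, 3 or 4 or HZ saline mouse 3, 4, 5, 7 or 8, with a difference of 0.50 to 0.63 over the 16.

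With VPA the levels of HZ and WT mice overlapped for every gene. HZ minus WT was 0.13 ± 0.29 for Dbp, 0.15 ± 0.13 for Tef, -0.02 ± 0.10 for Hlf and -0.07 ± 0.13 for Nfil3, none of 4 called (0.00281% of all probesets, 1 by limma, with 1023 at an unadjusted p under 0.05). The 95% confidence interval for Dbp, -0.45 to 0.71, still allows a modest difference either way. Over both treatments HZ minus WT was 0.63 ± 0.20 for Dbp, 0.37 ± 0.09 for Tef, 0.13 ± 0.07 for Hlf and -0.16 ± 0.09 for Nfil3, none called (lowest limma adjusted p = 0.340, for Tef, again with 0.00281% of all probesets called, and 1919 at an unadjusted p under 0.05).

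**Figure D3:**
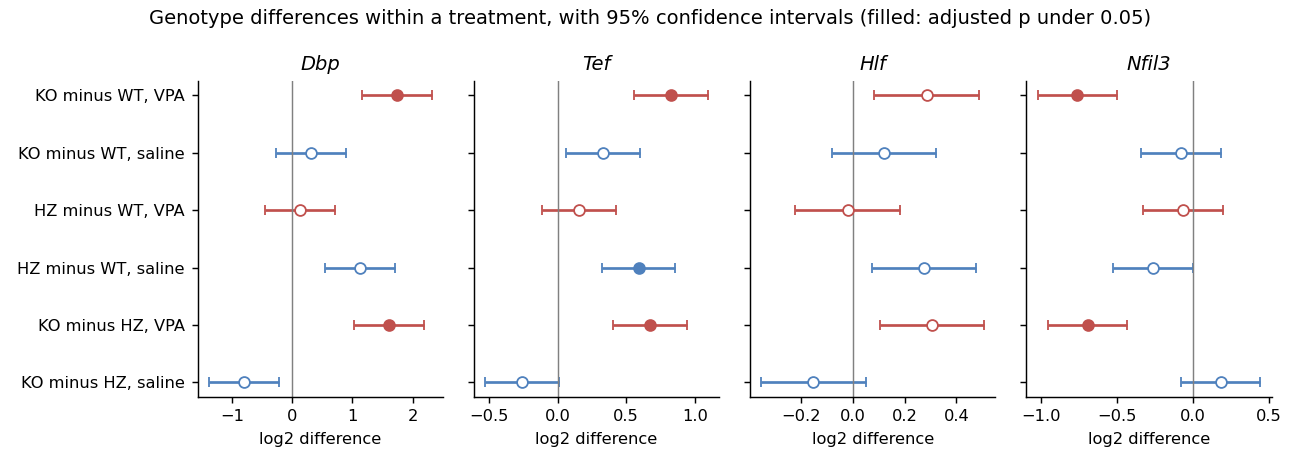
Genotype differences on the log2 scale (horizontal axes, separate scales) within VPA mice (red) and within saline mice (blue), with 95% confidence intervals and filled symbols for those called by limma. KO minus WT and KO minus HZ with VPA are above 0 for Dbp and Tef and below 0 for Nfil3, while KO minus WT with saline is smaller in size and not called for any gene, with an interval above 0 for Tef (0.06 to 0.60).

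Placed in order of their means, the 6 groups stood almost alike for the 3 activators, and Nfil3 had the order of Dbp and Tef in reverse. Dbp fell in the order HZ saline (10.82 ± 0.14), KO saline (10.01 ± 0.69), WT saline (9.70 ± 0.77), KO VPA (9.36 ± 0.68), HZ VPA (7.76 ± 0.60) and WT VPA (7.63 ± 0.49; SD, n = 8). Tef had the same order, from 10.19 ± 0.14 in HZ saline to 8.71 ± 0.24 in WT VPA, and so did Hlf except that HZ VPA (9.11 ± 0.20) came just below WT VPA (9.13 ± 0.15). Nfil3 ran from 9.00 ± 0.23 in WT VPA through HZ VPA (8.94 ± 0.19), KO VPA (8.24 ± 0.21), WT saline (8.07 ± 0.33) and KO saline (7.99 ± 0.34) to 7.81 ± 0.26 in HZ saline. Of the 20 pairs of neighbours, 5 passed an exact permutation test adjusted over the 20. The pairs were chosen by the order of the same means, so they tend to lie close, and are given as a description. For each gene the step between KO VPA and its neighbour among the other VPA groups was such a pair (adjusted p = 0.0031 for Dbp and Nfil3, 0.0078 for Tef, 0.0348 for Hlf), and the fifth was HZ saline over KO saline for Dbp (adjusted p = 0.0078). All 5 repeat comparisons made above. Limma there did not call Hlf in KO minus WT with VPA (adjusted p = 0.308) or Dbp in KO minus HZ with saline (adjusted p = 0.182). KO VPA and WT saline mice were neighbours for every gene and did not pass the permutation test (adjusted p = 0.525, 0.746, 0.405 and 0.405 for Dbp, Tef, Hlf and Nfil3).

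The mice of a group also varied in a shared way. After each value was set against its group mean, Dbp and Tef rose and fell together over the 48 mice (r = 0.71, rho = 0.65, permutation test within groups, p = 1e-05, the smallest 100000 resamples can give, adjusted p = 3e-05 over 6 pairs). Dbp and Nfil3 ran opposite (r = -0.67, rho = -0.64, permutation p = 1e-05, adjusted p = 3e-05), with r between -0.83 and -0.58 in every one of the 6 groups. A mouse with more Dbp than its group mean thus mostly had less Nfil3, in each of the 6 groups.

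The other pairs had r nearer to 0. Tef and Nfil3 gave r = -0.56 (rho = -0.55, permutation adjusted p = 0.0003) and Tef and Hlf r = 0.47 (rho = 0.42, permutation adjusted p = 0.00321). Dbp and Hlf (r = 0.32, rho = 0.28, permutation adjusted p = 0.0662) and Hlf and Nfil3 (r = -0.23, rho = -0.27, permutation adjusted p = 0.159) did not pass. Without the 2 mice farthest from the median of the measure on the x axis, r was 0.66 for Dbp and Tef, -0.60 for Dbp and Nfil3, -0.48 for Tef and Nfil3 and 0.36 for Tef and Hlf. In WT VPA mice alone Dbp and Tef gave r = 0.10, the lowest of the groups, against 0.97 in WT saline mice. Tef and Hlf gave r = -0.20 in WT VPA mice, against 0.28 to 0.78 in the other 5 groups. WT saline mouse 1, with Dbp at 8.15, Tef at 8.98 and Nfil3 at 8.70, was lowest, lowest and highest of its group.

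**Figure D4:**
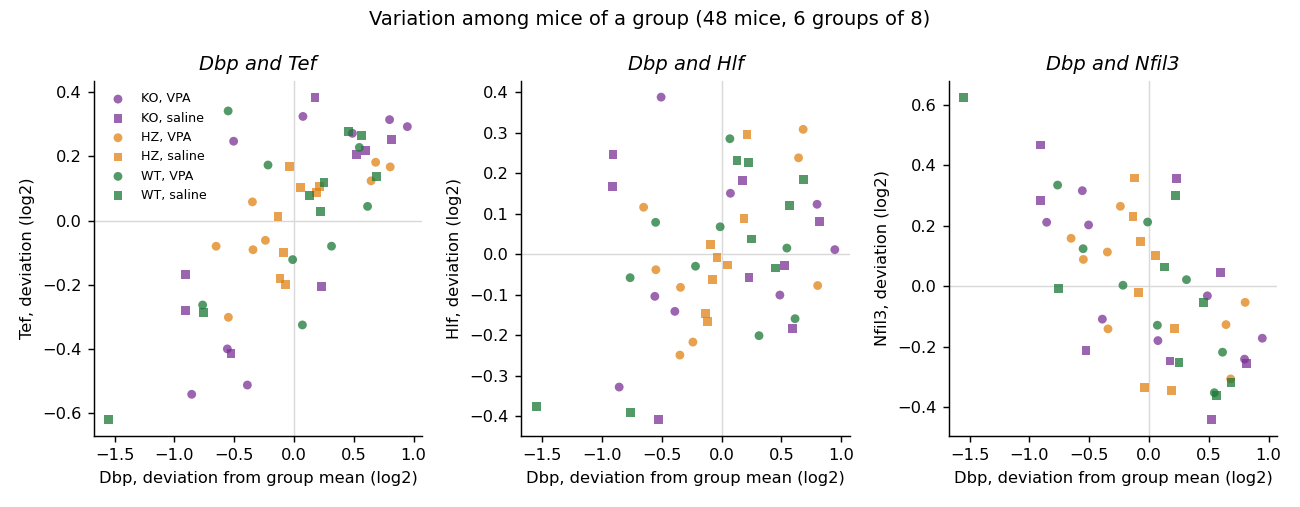
Deviation from the group mean (log2) of Tef, Hlf and Nfil3 (vertical axes) against that of Dbp (horizontal axis) for 48 mice, with colour for genotype, circles for VPA and squares for saline. Tef rises with Dbp (r = 0.71) and Nfil3 falls (r = -0.67), while Hlf is scattered (r = 0.32).

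The genes most like each member were chosen by the correlation of these deviations over 48 mice and are given as a description. For Dbp they were 1810013L24Rik (r = 0.72), Nr1d2, which encodes REV-ERB beta (0.70), Bhlhe41, an E-box repressor (0.68), Gne (0.67) and Aff4 (0.64), and the most opposite were Arntl, which encodes BMAL1 (-0.72), the choline kinase Chka (-0.68) and the mitochondrial protease subunit Clpx (-0.61). For Tef they were Per3 (0.88), Usp2 (0.77), Per1 (0.77), Ciart (0.76) and Klf13 (0.75), with Arntl (-0.66), Clpx (-0.65) and Clock (-0.61) most opposite. Thus genes of the clock loop stood on both sides of Dbp and Tef.

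For Hlf no core clock gene was among them: the most alike were Tmem25 (0.72), Mfsd2a (0.68), Baiap2l1 (0.68), Snrk (0.67) and Fgf1 (0.66) and the most opposite Calhm6 (-0.72), Rnf125 (-0.70) and Albfm1 (-0.69). For Nfil3 the most alike were Arntl (0.65), Wrnip1 (0.61), Tecpr2 (0.59), 1110038F14Rik (0.55) and the pyruvate dehydrogenase kinase Pdk4 (0.55), and the most opposite Bhlhe41 (-0.59), Cyth1 (-0.59) and Nr1d2 (-0.59). These genes share arrays, RNA samples and any difference in hour of killing with the members.

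The factors that act on the members moved with VPA too. Of the E-box activators, 2 of 3 were measured (Npas2 was not, with no probeset of its own) and both rose over the 3 genotypes: Arntl by 1.51 ± 0.13 (limma adjusted p = 5.9e-11) and Clock by 0.37 ± 0.06 (adjusted p = 1.6e-05). Of the E-box repressors 7 of 8 fell and none rose, among them Ciart (-2.07 ± 0.24), Per3 (-1.36 ± 0.14) and Per1 (-1.17), and Cry1 was not called (0.26). Of the RORE factors 3 of 4 were measured, the repressors Nr1d1 (-0.56 ± 0.18, adjusted p = 0.0393) and Nr1d2 (-0.69 ± 0.07, adjusted p = 1.1e-09) fell, and the activator Rora rose by 0.15. The median difference was 0.94, -0.73 and -0.56 for these lists, and -0.02 over all probesets, of which 8.61% were called.

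Split by genotype, limma called 0 of the 13 measured genes of the 3 lists with VPA in KO mice, 11 in HZ mice and 3 in WT mice, and at an unadjusted p under 0.05 the counts were 3 in KO, 11 in HZ and 12 in WT mice. The shares of all probesets called were those given above for the same comparisons, 0.0112% in KO, 10.5% in HZ and 0.0703% in WT mice. At an unadjusted p under 0.05 the counts over 35556 probesets were 2547, 10371 and 1973 in the same order. In HZ mice 2 of 2 E-box activators rose, 7 of 8 E-box repressors fell and Cry1 rose by 0.51, and Nr1d2 fell, with Arntl at 2.36 ± 0.23, Per3 at -2.40 ± 0.24 and Ciart at -3.51 ± 0.41. In WT mice Arntl rose by 1.50 ± 0.23 (limma adjusted p = 0.00023), and Per3 (-1.34 ± 0.24, adjusted p = 0.0035) and Nr1d2 (-0.88 ± 0.12, adjusted p = 5.0e-05) fell. In KO mice, where none was called, Arntl was at 0.69 ± 0.23, Per3 at -0.33 ± 0.24 and Nr1d2 at -0.17 ± 0.12. The KO minus HZ difference of the VPA effect was called for Arntl (-1.67), Clock (-0.68), Per3 (2.07), Bhlhe41 (1.04) and Nr1d2 (0.86).

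Between genotypes given VPA, KO mice had lower Clock than WT mice (-0.51 ± 0.10, limma adjusted p = 0.0044) and higher Per3 (1.58 ± 0.24, adjusted p = 0.00037), Ciart (1.77 ± 0.41, adjusted p = 0.0329), Cry2 (0.53) and Nr1d2 (0.72 ± 0.12, adjusted p = 0.00068). Arntl was not called there (-0.90 ± 0.23, adjusted p = 0.0665). With saline, Clock was also lower in KO than in WT mice (-0.46), the only gene of the 3 lists called in that comparison. In HZ saline against WT saline mice, Arntl (-0.98 ± 0.23, adjusted p = 0.0394) and Clock (-0.68 ± 0.10, adjusted p = 0.00019) were lower and Per3 (1.13 ± 0.24, adjusted p = 0.0214), Ciart (2.00 ± 0.41, adjusted p = 0.0162) and Cry2 (0.44) higher.

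Of 14 genes listed as downstream of PAR bZIP factors or Nfil3 in mouse liver, 11 were measured (no probeset was assigned to Por, Cyp2a4 or Cyp2a5 alone). Over the 3 genotypes 5 fell with VPA and 1 rose, where 8.61% of all probesets were called. Alas1, the rate-limiting enzyme of heme synthesis, fell by 1.41 ± 0.18 on the log2 scale (limma adjusted p = 4.6e-07). The acyl-CoA thioesterases Acot3 (-0.73) and Acot4 (-0.54), the xenobiotic receptor Nr1i3 or CAR (-0.43) and the fatty acid sensor Ppara (-0.36) fell too, and Cyp2b10, a cytochrome P450 that CAR induces, rose by 0.79 ± 0.17 (adjusted p = 0.0027). The list's median was -0.36, against -0.02 over all probesets.

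In HZ mice 6 of these 11 fell: Alas1 (-2.72 ± 0.31, limma adjusted p = 5.6e-08), Acot3 (-1.57), Cyp7a1, the rate-limiting enzyme of bile acid synthesis (-1.17), Acot4, Nr1i3 (-0.72) and Ppara (-0.58), and the hormone gene Fgf21 rose by 0.53. In KO and in WT mice 0 of 11 were called by limma (3 and 5 at an unadjusted p under 0.05), with Alas1 at -0.81 ± 0.31 in KO mice and -0.71 ± 0.31 in WT mice. The shares of all probesets called were 10.5% in HZ, 0.0112% in KO and 0.0703% in WT mice. At the KO and WT shares, 0 of 11 says little about these genes. Ces2a and Cyp2c50 were both at 0.01 over the 3 genotypes. By genotype, 3 of the 11 were called in KO minus WT over both treatments, all higher (2.94% of all probesets). With VPA 2 were higher in KO minus WT (0.405%) and 2 in KO minus HZ (0.298%). With saline 1 was higher in KO minus WT (0.79%) and 1 in HZ minus WT (0.304%), and 2 lower in KO minus HZ (1.39%). For the VPA effect in KO minus that in HZ 1 was called (0.214%). Among 6 related bZIP factors of the C/EBP and ATF families, Atf5 rose by 0.26 and Cebpa fell by 0.32 over the 3 genotypes, and Atf4, Cebpb, Cebpd and Cebpg were not called.

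**Figure D5:**
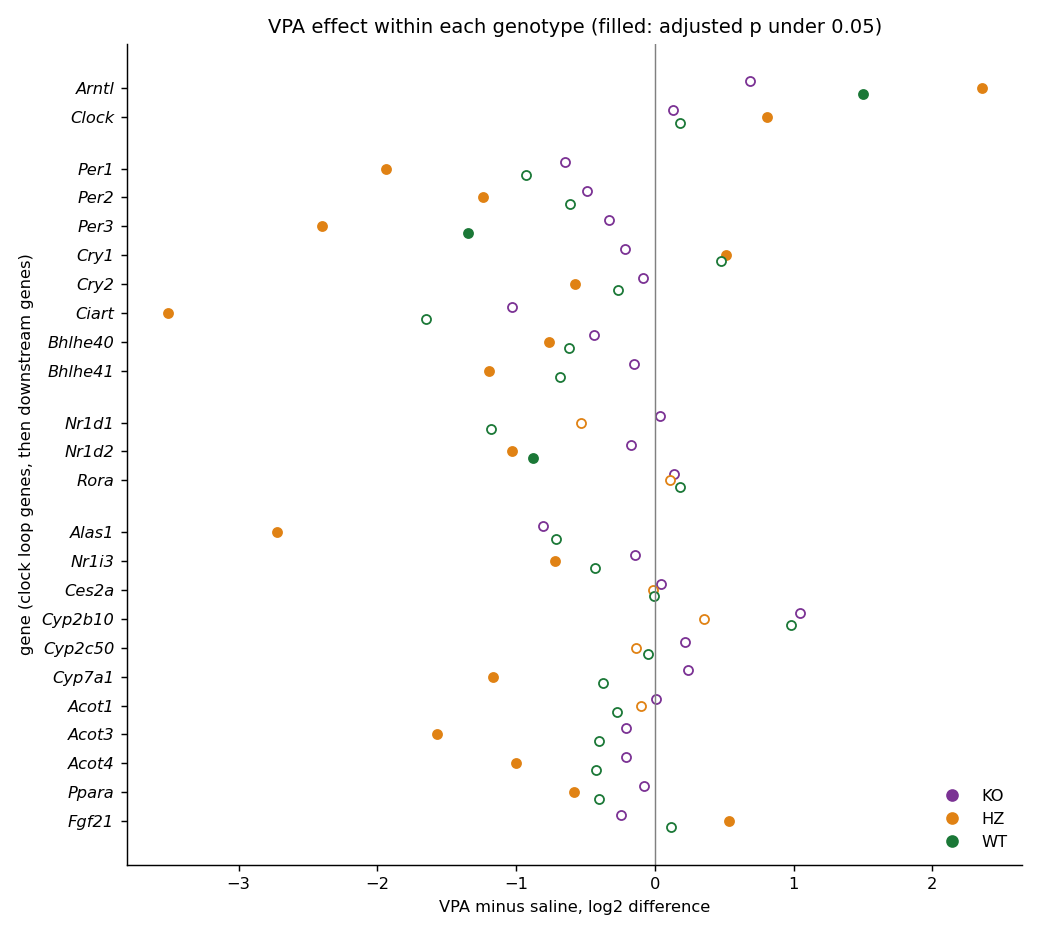
VPA minus saline on the log2 scale (horizontal axis) in KO, HZ and WT mice for the E-box activators, E-box repressors and RORE factors and, at the bottom, genes downstream of the PAR bZIP factors, with filled symbols for those called by limma. HZ values lie farthest from 0 for most clock genes (Ciart at -3.51, Arntl at 2.36) and no KO symbol is filled.

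Markers of other liver cells moved with VPA in HZ mice, where all 4 members were called. Of 6 Kupffer cell markers 4 rose there (Adgre1 by 0.99, Cd5l by 0.86, Csf1r by 0.62 and Clec4f by 0.51), and their mean level per mouse ranged from 9.13 to 9.62 in HZ VPA mice, against 8.35 to 9.21 in HZ saline mice. Of 5 endothelial markers 4 rose (mean level 9.16 to 9.60 in HZ VPA mice, against 8.87 to 9.22 in HZ saline mice), and of 4 stellate cell markers 3 rose (9.48 to 9.88, against 9.10 to 9.49). Of these 15 markers 0 were called by limma with VPA in KO or in WT mice (0 in either at an unadjusted p under 0.05), and their part in the HZ results was not tested. With saline, the lists of these markers had lower medians in HZ than in WT or KO mice: 1 of the 15 was called (lower) in HZ minus WT (11 at an unadjusted p under 0.05), with medians of -0.42, -0.31 and -0.31 for the Kupffer cell, endothelial and stellate cell lists against 0.02 over all probesets. In KO minus HZ with saline 3 of 15 were called (10 at an unadjusted p under 0.05), with medians of 0.35, 0.39 and 0.30. The mean level of the endothelial markers ran from 9.25 to 9.80 in KO saline mice and from 8.87 to 9.22 in HZ saline mice, against 9.10 to 9.48 in WT saline mice, and their part in the saline differences of the members was not tested either. Of 13 hepatocyte and lymphocyte markers 0 were called with VPA within a genotype (0 in KO, 3 in HZ and 1 in WT mice at an unadjusted p under 0.05), and of 15 neutrophil, erythroid, cholangiocyte, pancreas and muscle markers 5 were called in HZ mice and 0 in KO or WT mice (2 and 3 at an unadjusted p under 0.05). Over the 3 genotypes 1 of those 13 (a hepatocyte marker, lower) and 5 of those 15 were called. So were 7 of the 15 Kupffer cell, endothelial and stellate cell markers, where 8.61% of all probesets were. With VPA, 10.5% of all probesets were called in HZ, 0.0112% in KO and 0.0703% in WT mice. At an unadjusted p under 0.05 these were 10371, 2547 and 1973 of 35556 probesets. At the KO and WT shares, 0 of 15 says little about the markers. With saline the shares were 0.304% for HZ minus WT and 1.39% for KO minus HZ. At an unadjusted p under 0.05 these were 3792 and 4283 of 35556 probesets.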

How the data were processed

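Liver RNA (300 ng, RNA integrity number 7 to 9) of 48 mice was labelled with the Ambion WT expression kit and hybridized to 1 array per mouse. The deposited log2 values had been made by the authors with the RMA method (Expression Console 1.1.2800.28061): background subtraction, quantile normalization, which forces all arrays to share 1 distribution, and a summary per probeset. A change shared by most genes is therefore removed. The values were used with no further normalization. Probesets were named from the platform annotation: 21789 of 35556 had 1 symbol, 1621 had several and 12146 had none. A listed gene with several probesets was represented by the one with the highest mean.

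Groups came from the labels. A mean per group was fitted across the 48 arrays (limma 3.58.1, R 4.3.3), matching the study's genotype by treatment design, with 42 residual degrees of freedom before moderation by eBayes, and p-values were adjusted over 35556 probesets. Pairs of groups were also compared by exact permutation tests over 12870 splits of 16 mice, whose smallest p is 0.000155. The fits were tested on simulated data. The members, the gene lists and the tests were chosen with earlier results of these data known. The genes named were the members, the 5 probesets most alike and the 3 most opposite to each, and listed genes. All of their lists are counted in the text, though not for every comparison. The tests of neighbouring groups were added after the data were seen.

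Promoter windows and gene positions were those of RefSeq on GRCm38.p6, in which all 4 members matched by symbol. Mice with the same replicate number in 2 groups were not taken as paired, since the labels give no such link. Alternatives were weights per array, a trended and robust eBayes, no moderation, the thresholds of the methods, median centring, restriction to probesets with 1 symbol or with any group mean of 5 or more, a replicate block, only the arrays compared, a threshold of 0.01, medians and leaving out each mouse. The precision is set by the number of arrays. Plots used Python 3.11.15 and matplotlib 3.10.9. Body weight, glucose tolerance and qRT-PCR were not used here.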

Additional observations from a re-analysis of the deposited data

Results flagged for a closer look

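The effect of VPA differed between KO and HZ mice for 3 of the 4 genes, by limma tests of the difference itself. The VPA effect in KO minus that in HZ mice was 2.40 for Dbp (adjusted p = 0.00257), 0.93 for Tef (adjusted p = 0.0165) and -0.87 for Nfil3 (adjusted p = 0.0213), where 0.214% of all probesets were called. The interaction F test of limma was called for Dbp (adjusted p = 0.0120), where 0.0816% of all probesets were. It was not called for Tef (adjusted p = 0.0586), Nfil3 (adjusted p = 0.0538) or Hlf (adjusted p = 0.401). For KO minus WT and for HZ minus WT, the VPA effect was called for none of the genes and for 0% of all probesets. No mouse stood far from the other 7 of its group in any of the 24 combinations of gene and group, by Dixon's test of the gap to its nearest neighbour as a share of the range.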

How the results depend on the processing

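The VPA effect over the 3 genotypes kept its direction and its call for all 4 genes under every alternative run, as did the KO minus WT difference for Dbp, and by leaving out a mouse the VPA effect ranged from -1.99 to -1.88 for Dbp, from -0.91 to -0.85 for Tef, from -0.49 to -0.46 for Hlf and from 0.75 to 0.80 for Nfil3. The p and fold thresholds of the methods, taken without moderation, removed the KO minus WT calls of Tef (0.58) and Nfil3 (-0.42). The interaction of Dbp (adjusted p = 0.0120) missed a threshold of 0.01, and without single mice its adjusted p ranged from 0.00282 to 0.0310. By limma, the interaction passed for Tef and for Nfil3 with array weights (limma adjusted p = 0.0122 and 0.0111), with only probesets of 1 symbol (0.0266 and 0.0255) and with only probesets of a group mean of at least 5 (0.0489 and 0.0452). At the unadjusted threshold of the methods both passed too, at 9.7e-05 for Tef and 8.1e-05 for Nfil3. Without single mice its adjusted p ranged from 0.0172 to 0.120 for Tef and from 0.0196 to 0.113 for Nfil3. With the replicate block it was 0.0057 for Dbp, 0.0136 for Tef and 0.0136 for Nfil3, and the block called 54 probesets for interaction, against 29 without it, and also passed Dbp in HZ minus WT with saline (0.0470) and Hlf for VPA in WT mice (0.0370). Dbp there passed with only probesets of 1 symbol too (limma adjusted p = 0.0398), and Hlf with array weights (0.0127) and with only probesets of 1 symbol (0.0459). After values were set against their group means, same-numbered mice of 2 groups correlated above 0.1 over all probesets in 53 of 120 pairs. Their mean r was 0.055, against -0.0078 for mice of 2 groups with different numbers. Of the 48 arrays, 11 were closest to an array of their own number. The HZ minus WT value of Hlf with VPA reversed without WT VPA mouse 5 or HZ VPA mouse 1 or 4 (range -0.065 to 0.020), and the KO minus WT value of Nfil3 with saline reversed with array weights (0.031) and without WT saline mouse 1 (range -0.15 to 0.0081), none of these being called. Over all probesets, 3062 were called for VPA, against 1624 at the thresholds of the methods, 1056 at 0.01, 78 with only KO and WT arrays and 4663 without KO saline mouse 2. For KO minus WT 1046 were called, against 64, 478 and 689 in the same order of the first 3 settings. For the interaction 29 were called, against 358 at the thresholds of the methods, 3 at 0.01, 133 with array weights, 54 with 1 symbol and 15 (HZ saline mouse 4) to 52 (KO saline mouse 8) without single mice. Without single mice the counts over all probesets also ran from 1 (KO VPA mouse 1) to 23 (KO saline mouse 2) for VPA in KO, where 4 were called, from 2072 (HZ VPA mouse 1) to 4873 (HZ VPA mouse 7) in HZ, where 3726 were, and from 17 (WT saline mouse 5) to 77 (WT saline mouse 1) in WT, where 25 were. For KO minus WT with VPA they ran from 75 (KO VPA mouse 4) to 217 (KO VPA mouse 1) around 144, for KO minus WT with saline from 102 (KO saline mouse 4) to 476 (KO saline mouse 7) around 281, for KO minus HZ with VPA from 39 (KO VPA mouse 5) to 183 (KO VPA mouse 1) around 106 and with saline from 294 (KO saline mouse 4) to 676 (KO saline mouse 7) around 496, for the VPA effect in KO minus that in HZ from 42 (HZ saline mouse 4) to 153 (KO saline mouse 8) around 76, and for HZ minus WT with saline from 26 (HZ saline mouse 4) to 143 (HZ saline mouse 2) around 108. The cause of these changes was not tested, beyond the fewer probesets or samples that a setting holds by construction.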
